A study of Mus musculus with 6 samples.

Results

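The Fraser complex is a set of very large proteins found at the basement membranes of epithelia. The genes described here include FREM1, FREM2 and FRAS1, which encode its matrix subunits, and FREM3, which encodes a related matrix protein. The last is GRIP1, which encodes the adaptor that carries the complex to the cell surface. These genes are 5 of the 58735 genes in the table, and all 5 are among the 17142 genes with enough counts to be tested. The family was selected on the measured fold change of FREM1 between the 2 groups compared below. The other members were taken by name, as genes of the same complex or related to it. Their fold changes, intervals and calls in that comparison are therefore given as a description and support nothing about the family.

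RNA-Seq was performed on 22Rv1, a human prostate cancer cell line. Parental cells received vehicle, and the resistant subline, 22Rv1 BL-B01D1_R, had been selected in rising concentrations of BL-B01D1. BL-B01D1 is a bispecific antibody-drug conjugate that binds EGFR and HER3 and carries a topoisomerase I inhibitor. Each group held 3 libraries. No engineered allele was named for either group. The libraries of the resistant group came from 1 selection, and the sources used here do not state that the libraries of a group were separate cultures, so the tests measure only the spread between these libraries. Mouse is the organism given in the labels, but the table lists human gene identifiers throughout and was treated as human.

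FRAS1 and FREM2 are membrane proteins with long extracellular parts that hold chondroitin sulfate proteoglycan repeats, FREM1 is a secreted protein with the same repeats, and FREM3 is a related protein of basement membranes. FRAS1, FREM2 and FREM1 stabilize one another at the basement membrane, so loss of one lowers the others there. Loss of FRAS1, FREM2 or GRIP1 causes Fraser syndrome in humans, in which skin, eyelids, digits and kidneys fail to form normally, and mutations of FREM1 cause related malformations. In the embryo, FRAS1 and FREM2 are made largely by epithelial cells, whereas FREM1 is made largely by the underlying mesenchyme.

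The deposited counts totaled 13821639 to 17251491 per library, and 3 counts corresponded to 0.174 to 0.216 CPM (counts relative to library size, after TMM scaling). Markers of luminal prostate cells were present, with all 10 of 10 listed genes tested. Their summed level was 3441 to 3543 CPM in parental and 3633 to 3720 CPM in resistant libraries. At an edgeR FDR below 0.05, 6 of them were higher and 3 lower, beside 17.1% and 18.4% of all genes tested. The largest of these differences were those of KLK3 (log2 fold change 0.91) upward and HOXB13 (−0.48) downward. Of the 8 fibroblast and stroma markers, 1 (POSTN) had no count in any library, COL1A2 had at most 2 counts, THY1 at most 2 and PDGFRB at most 6. COL1A1 was present at 14.1 ± 1.09 and 11.7 ± 0.56 CPM (edgeR FDR 0.0348), DCN at 1.79 ± 0.20 and 1.30 ± 0.58 CPM, and COL3A1 at 0.64 ± 0.20 and 0.76 ± 0.20 CPM. The summed level of this list was 111 to 115 CPM in parental and 39.6 to 44.6 CPM in resistant libraries, mostly from LUM (95.8 ± 2.96 and 28.7 ± 2.40 CPM). Summed levels were at most 1.36 CPM for basal markers, at or below 0.288 CPM for immune markers and at or below 0.184 CPM for endothelial markers, in which KRT5, CD3E and CDH5 had no count. Among neuroendocrine markers, CHGA fell from 39.3 ± 1.59 to 8.16 ± 0.49 CPM (log2 fold change −2.26, edgeR FDR 2.49e-24), and SYP, the most abundant of them, had 103 ± 7.61 and 106 ± 3.63 CPM (log2 fold change 0.041, edgeR FDR 0.531). The part of LUM- or CHGA-expressing cells in the results below was not tested.

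FREM1, the secreted subunit, went from near absence to a clear signal. FREM1 (ENSG00000164946; chromosome 9 of hg38, 14734666 to 14910995, reverse strand) had 5, 5 and 3 counts in parental libraries 1, 2 and 3 and 263, 264 and 255 counts in resistant libraries 1, 2 and 3. Every resistant library lay far above every parental library. In CPM, the level was 0.267 ± 0.045 in the parental group and 16.5 ± 1.24 in the resistant group (SD, n = 3 each). The ratio of the summed counts, 782 over 13 after scaling by library size, was 60.7 with a 95% exact interval of 35.3 to 114, which covers counting error only. The fitted log2 fold change was 5.89 (SE 0.22), the rank 3 value from the highest among the 17142 genes tested. This is the value by which the family was chosen. Since the parental counts were at or close to 3, the size of the ratio rests on 13 counts. In bulk RNA, a larger number of cells with the transcript and more transcript per cell cannot be told apart. Counts are per gene, so full-length FREM1 and its short isoform, which acts as a co-receptor with the interleukin 1 receptor, were not separated.

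FREM2, the membrane subunit that forms the complex with FRAS1 and FREM1, differed in the same direction by a smaller amount. FREM2 (ENSG00000150893; chromosome 13, 38687129 to 38887131, forward strand) had 340, 287 and 260 counts in parental libraries and 401, 361 and 382 counts in resistant libraries. Its level was 18.5 ± 1.33 CPM in the parental group and 24.0 ± 0.51 CPM in the resistant group (SD, n = 3 each), with no overlap between the groups. The log2 fold change was 0.38 (SE 0.082).

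FRAS1, the founding subunit of the complex, was the most abundant member in both groups. FRAS1 (ENSG00000138759; chromosome 4, 78057570 to 78544269, forward strand) had 1984, 1897 and 1575 counts in parental libraries and 1612, 1598 and 1684 counts in resistant libraries. Its level was 114 ± 1.12 CPM in the parental group and 103 ± 5.70 CPM in the resistant group (SD, n = 3 each). The groups lay close together, with 113 CPM in the lowest parental library and 108 CPM in the highest resistant library. The log2 fold change was −0.14 (SE 0.042), and the resistant libraries spread more among themselves than counting error gives, at 4.98 chi-square units for each degree of freedom.

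FREM3, a paralog of FREM2, was lower in resistant libraries. FREM3 (ENSG00000183090; chromosome 4, 143577302 to 143700675, reverse strand) had 74, 54 and 51 counts in parental libraries and 23, 24 and 13 counts in resistant libraries. Its level was 3.72 ± 0.54 CPM in the parental group and 1.27 ± 0.43 CPM in the resistant group (SD, n = 3 each), and the groups did not overlap. The log2 fold change was −1.55 (SE 0.26), and the parental level was 2.96 times the resistant level by summed counts (95% exact interval 2.20 to 4.03, counting error only). The whole interval of FREM3 is covered on the other strand by AC139713.2, which had 20 to 28 counts in every library and a log2 fold change of −0.082 (SE 0.31). The counting is not stated to use strand.

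GRIP1, a cytoplasmic protein with multiple PDZ domains that binds the tails of FRAS1 and FREM2, was also lower. GRIP1 (ENSG00000155974; chromosome 12, 66347431 to 67069162, reverse strand) had 120, 139 and 121 counts in parental libraries and 74, 66 and 65 counts in resistant libraries. Its level was 7.97 ± 0.91 CPM in the parental group and 4.31 ± 0.27 CPM in the resistant group (SD, n = 3 each), with no overlap. The log2 fold change was −0.88 (SE 0.16). HELB, a DNA helicase gene on the other strand, shares 215 bases with the GRIP1 interval, and its log2 fold change was −0.44 (SE 0.12). The part of shared reads in either value was not tested.

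**Figure D1:**
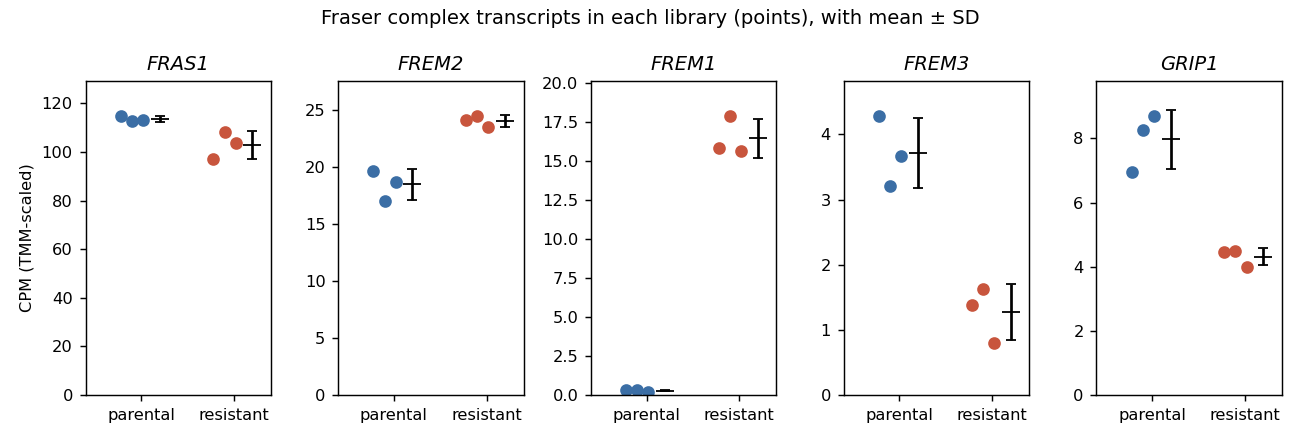
Level in CPM, on a separate vertical axis from 0 for each gene, in 3 parental (blue) and 3 resistant (red) libraries, with the mean and SD in black. FREM1 moved from 0.267 to 16.5 CPM on average and FREM2 from 18.5 to 24.0 CPM, whereas FREM3, GRIP1 and FRAS1 were lower in resistant libraries.

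Genes were called with the cutoffs in the study's methods, which are an FDR below 0.05 together with a log2 fold change above 1 in size. By this rule 1 of the 5 members was called higher (FREM1) and 1 lower (FREM3), beside 2.53% of all genes tested called higher and 2.84% called lower. Since the family was selected from this same comparison, nothing is read from these counts. The groups did not overlap in any of the 5 members, and they did not overlap in 44.9% of all genes tested. An absolute log2 fold change larger than that of the member was found in 0.0117% of genes for FREM1, 2.21% for FREM3, 7.01% for GRIP1, 23.7% for FREM2 and 56.3% for FRAS1. The members therefore ranged from among the largest differences in the table to one in the middle of it.

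Levels of different genes were compared per length, as CPM per kilobase of listed gene length (FPKM). In parental cells the order was FRAS1 (5.99 ± 0.059), GRIP1 (1.21 ± 0.14), FREM2 (1.14 ± 0.082), FREM3 (0.54 ± 0.079) and FREM1 (0.025 ± 0.0042 FPKM; SD, n = 3 for each). GRIP1 and FREM2 overlapped between libraries, and the other neighbors in this order did not. In resistant cells the order was FRAS1 (5.43 ± 0.30), FREM1 (1.53 ± 0.12), FREM2 (1.48 ± 0.031), GRIP1 (0.66 ± 0.041) and FREM3 (0.19 ± 0.062 FPKM; SD, n = 3 for each). FREM1 and FREM2 overlapped there, with 1.46 to 1.66 FPKM for FREM1 and 1.45 to 1.51 FPKM for FREM2. FREM1 thus moved from the lowest place to one shared with FREM2.

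The ratio of FREM2 to FREM1 per length was 45.1, 38.1 and 57.5 in parental libraries and 1.01, 0.907 and 0.994 in resistant libraries. The ratio of FRAS1 to FREM2 was 4.99 to 5.66 in parental libraries and 3.44 to 3.79 in resistant libraries. FRAS1 thus stayed several times above FREM2 in both groups, and the transcripts of FREM1 and FREM2 were close to parity only in the resistant libraries. This parity holds for the listed gene lengths, since full-length FREM1 and its short isoform were not separated. As a share of the summed level per length of the 5 genes, FREM1 made up 0.279% ± 0.050 in parental and 16.5% ± 0.47 in resistant libraries (SD, n = 3). The share of FRAS1 was 67.3% ± 0.83 and 58.5% ± 1.48, and that of GRIP1 was 13.6% ± 1.6 and 7.07% ± 0.45 (SD, n = 3). The sum of all 5 genes was 8.75 to 9.0 FPKM in parental and 8.96 to 9.81 FPKM in resistant libraries, with overlap between the groups. Without the adaptor GRIP1, the sum of the 4 matrix genes was 7.49 to 7.92 FPKM in parental libraries. It was 8.28 to 9.13 FPKM in resistant libraries, with no overlap. That sum includes FREM1, by which the family was chosen, at means of 0.025 FPKM in parental and 1.53 FPKM in resistant libraries. Among the other matrix genes, FREM2 was higher in resistant libraries (1.14 and 1.48 FPKM). FRAS1 (5.99 and 5.43 FPKM) and FREM3 (0.54 and 0.19 FPKM) were lower. The separation of the sum is therefore not read as a rise of the matrix genes as a set. These are transcript levels, and the amounts of the proteins were not measured by this assay.

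**Figure D2:**
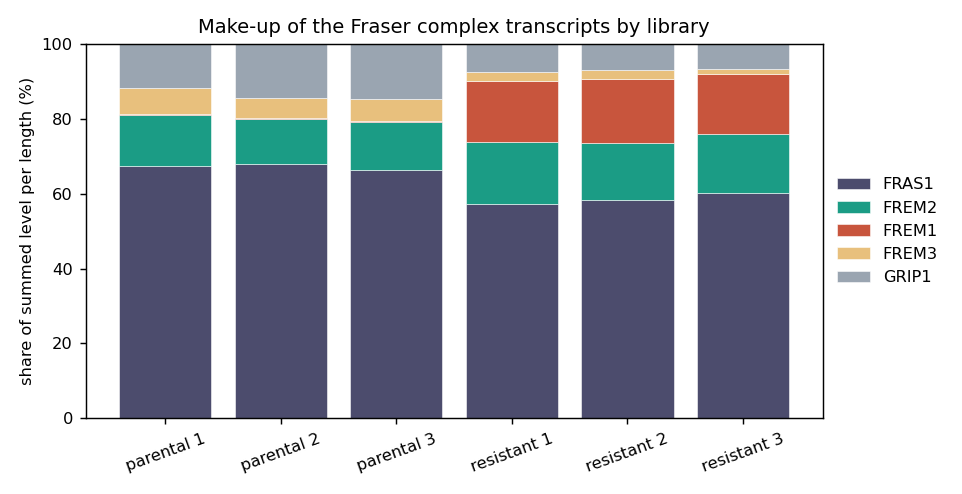
Share of each gene, in percent, in the summed level per length of the 5 genes, with 1 stacked bar per library. FREM1 (red) is too thin to be seen in parental libraries, at 0.279% on average, and makes up 16.5% in resistant libraries, next to FREM2 at 12.8% and 16.0%.

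Genes known to work with the Fraser complex were read from the same fit. The list held 12 genes, the ligand and receptor chains, matrix partners, a paralog of GRIP1, the interleukin 1 receptor and proprotein convertases. Of these, 10 were tested, 4 rose at an FDR below 0.05 and 0 fell, beside 17.1% of all tested genes higher and 18.4% lower at that threshold. Only COL7A1 was called, beside the 2.53% of genes called higher given above. The median log2 fold change of the list was 0.08, against 0.00 over all tested genes. Of the 2 genes not tested, ITGA8 had no count and PCSK5 had at most 4 counts in any library.

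Nephronectin, encoded by NPNT, is a basement membrane ligand whose deposition in the kidney depends on the Fraser complex, and its receptor is the integrin of the α8 and β1 chains. NPNT had 107 ± 7.22 CPM in parental and 107 ± 2.71 CPM in resistant cells (SD, n = 3), with a log2 fold change of −0.0022 (SE 0.044, edgeR FDR 0.976). ITGA8, the α8 chain, had 0 counts in all 6 libraries, which allows up to 0.174 to 0.216 CPM in a library. ITGB1, the β1 chain, rose slightly from 271 ± 7.22 to 288 ± 8.96 CPM (log2 fold change 0.087, SE 0.031, edgeR FDR 0.0269). The ligand was thus well expressed and its defining receptor chain was not detectable at this depth in either group.

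The other partners that rose were matrix genes and a protease. COL7A1, the collagen of anchoring fibrils, had 231, 268 and 209 counts in parental and 521, 453 and 451 counts in resistant libraries, with no overlap. Its log2 fold change was 1.02 (SE 0.085, edgeR FDR 3.28e-13), just past the fold threshold. With parental library 1 or resistant library 1 left out, COL7A1 was no longer called, and no partner gene was then called higher. VWA2, which encodes AMACO, a basement membrane protein that binds the Fraser complex, rose from 6.77 ± 0.61 to 10.6 ± 0.29 CPM (log2 fold change 0.65, edgeR FDR 6.33e-05). FURIN, a proprotein convertase of the secretory pathway, rose from 56.0 ± 1.53 to 80.2 ± 3.10 CPM (log2 fold change 0.52, edgeR FDR 1.56e-11).

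The remaining partners did not pass the test. The convertase genes PCSK6 and PCSK7 had log2 fold changes of 0.28 (edgeR FDR 0.0815) and 0.065 (FDR 0.468). IL1R1, the interleukin 1 receptor, had 60.4 ± 4.28 CPM in parental and 60.2 ± 3.65 CPM in resistant cells. GRIP2, the paralog of GRIP1, was weakly expressed at 2.48 ± 0.61 and 1.81 ± 0.58 CPM (edgeR FDR 0.187). CSPG4, a proteoglycan with repeats like those of the FREM proteins and a binding partner of GRIP1, had 25, 30 and 31 counts in parental and 27, 11 and 13 counts in resistant libraries (edgeR FDR 0.0769). Resistant library 1 lay within the parental range, and without it CSPG4 was called lower.

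A separate list of basement membrane genes, with laminin chains, collagen IV chains, nidogens and others, was read from the same fit. Of its 23 genes, 18 were tested, and 4 rose and 7 fell at an FDR below 0.05. By the calling rule, 2 were called higher and 5 lower. Over all genes tested, 17.1% rose and 18.4% fell at that FDR, and 2.53% and 2.84% were called. The list's median log2 fold change was −0.047. NID2, a nidogen that links laminin to collagen IV, rose from 1.32 ± 0.18 to 6.69 ± 1.07 CPM (log2 fold change 2.33, edgeR FDR 4.87e-12). Its paralog NID1 fell from 36.4 ± 1.78 to 13.9 ± 1.40 CPM (log2 fold change −1.40, edgeR FDR 6.56e-18). NID1 thus remained above NID2 in CPM in both groups. COL4A6, a collagen IV chain, was the other gene called higher, at 7 to 11 counts in parental and 14 to 24 counts in resistant libraries (log2 fold change 1.07, edgeR FDR 0.0402), and it was not called with limma-voom, DESeq2 or 5 of the 6 fits that left out a library. The largest decreases were those of the laminin chain LAMC3 (log2 fold change −1.88), HSPG2, which encodes perlecan (−1.64), and the laminin chain LAMA3 (−1.54), each with an edgeR FDR of 6.43e-05 or lower. COL4A4 (−1.06) was called lower as well, but not with a prior count of 5 or without parental library 2, resistant library 2 or resistant library 3. Among abundant laminin genes, LAMB2 rose from 83.3 ± 4.27 to 123 ± 0.79 CPM (log2 fold change 0.56, edgeR FDR 1.53e-14), whereas LAMC1, LAMA5 and LAMB1 had log2 fold changes of −0.055, −0.053 and −0.041 and did not pass the test. COL4A5, the collagen IV chain that pairs with COL4A6, rose from 36.3 ± 1.68 to 60.0 ± 3.67 CPM (log2 fold change 0.72, edgeR FDR 3.52e-13). The collagen IV chains COL4A2 (log2 fold change −0.68, edgeR FDR 0.00243) and COL4A3 (−0.64, edgeR FDR 0.000231) fell. Like COL4A5, they were not called.

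Of 16 genes listed as binding partners of GRIP1 outside the complex, 15 were tested, 4 rose and 5 fell at an FDR below 0.05, and the median log2 fold change was 0.01. CSPG4 is both in this list and in the list of partners above. The count of 4 higher and 5 lower of 15 stands beside 17.1% and 18.4% of all genes tested, and the 3 called higher and 1 lower stand beside 2.53% and 2.84%. The genes called higher were PPFIA2, a liprin (log2 fold change 1.92), EFNB2, an ephrin ligand (1.27), and KIF5C, a kinesin heavy chain (1.24), each with an edgeR FDR of 6.22e-12 or lower. EPHB2, an ephrin receptor, was called lower, from 7.06 ± 0.79 to 2.37 ± 0.36 CPM (log2 fold change −1.58, edgeR FDR 2.55e-09). KIF5B, the most abundant gene of this list by CPM, had 434 ± 13.2 CPM in parental and 436 ± 4.81 CPM in resistant cells.

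**Figure D3:**
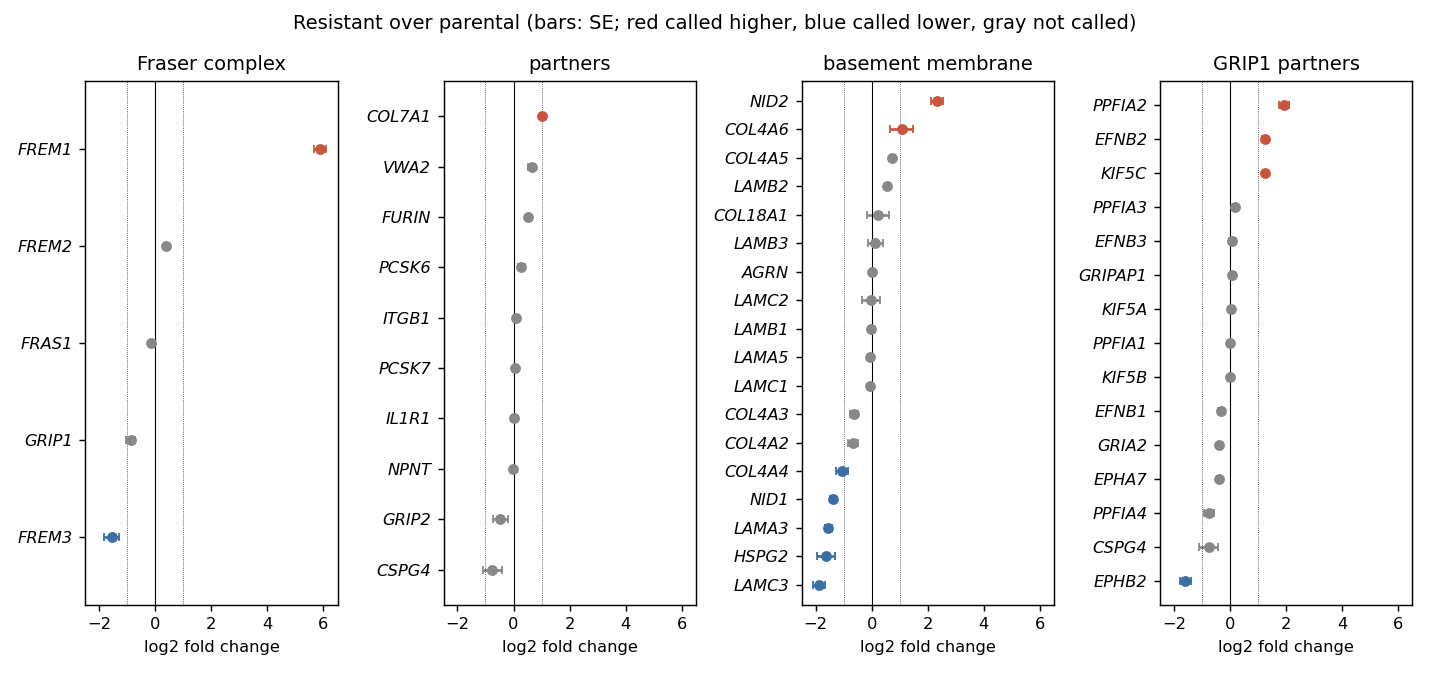
Log2 fold change of resistant over parental cells, with its SE, for each tested gene of the Fraser complex and of the lists of partners, basement membrane genes and GRIP1 binding partners. Dotted lines mark an absolute log2 fold change of 1; FREM1 at 5.89 stands apart on the shared axis, and the next highest value shown is that of NID2 at 2.33.

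The members lie on chromosomes 4, 9, 12 and 13, and the genes around them were read to see how far each difference reached along the chromosome. Within 1 Mb of the 5 members, 37 genes were tested, of which 1 was called higher and 1 lower, and their median log2 fold change was 0.0048. These counts are close to the 2.53% called higher and 2.84% called lower among all genes tested. Around FREM1, 7 genes were tested and none was called higher. Their median log2 fold change was 0.17. At an FDR below 0.05, 2 of them were higher and 1 lower, beside 17.1% and 18.4% of all genes tested. The nearest tested gene at lower coordinates, ZDHHC21, a palmitoyltransferase gene 41.2 kb away, rose slightly from 65.7 to 74.0 CPM (log2 fold change 0.17, SE 0.049, edgeR FDR 0.00458). The nearest at higher coordinates, the pseudogene LDHAP4 at 10.3 kb, had 5 to 20 counts per library (log2 fold change 0.88, SE 0.45, edgeR FDR 0.126). The pseudogene CLCN3P1, on the same strand at 76.3 kb, had 0 counts in every parental library and 3, 6 and 1 counts in resistant libraries. It was too low to be tested here and was called higher when no filter was applied. Among the 7 tested genes, none had a difference as large as that of FREM1.

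NFIB, a transcription factor gene 336 kb from FREM1, was the gene called lower, from 779 ± 6.30 to 238 ± 2.18 CPM (log2 fold change −1.71, SE 0.027, edgeR FDR 3.07e-38). The only called neighbor of another member was LHFPL6, a gene for a membrane protein of the LHFPL family 322 kb from FREM2, with 5, 12 and 12 counts in parental and 50, 70 and 66 counts in resistant libraries (log2 fold change 2.68, SE 0.31, edgeR FDR 2.45e-09). It lost its place when at least 10 counts were required in every library. Within 1 Mb of FREM3, FRAS1 and GRIP1 no gene was called, although GGTA2P near GRIP1, with 1 to 12 counts per library, was called higher with limma-voom or without parental library 3. The antisense gene AL512643.1, which shares 524 bases with FREM1, had at most 9 counts in any library, and reads from the other strand over the rest of FREM1 were not tested. Copy number was not measured here.

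**Figure D4:**
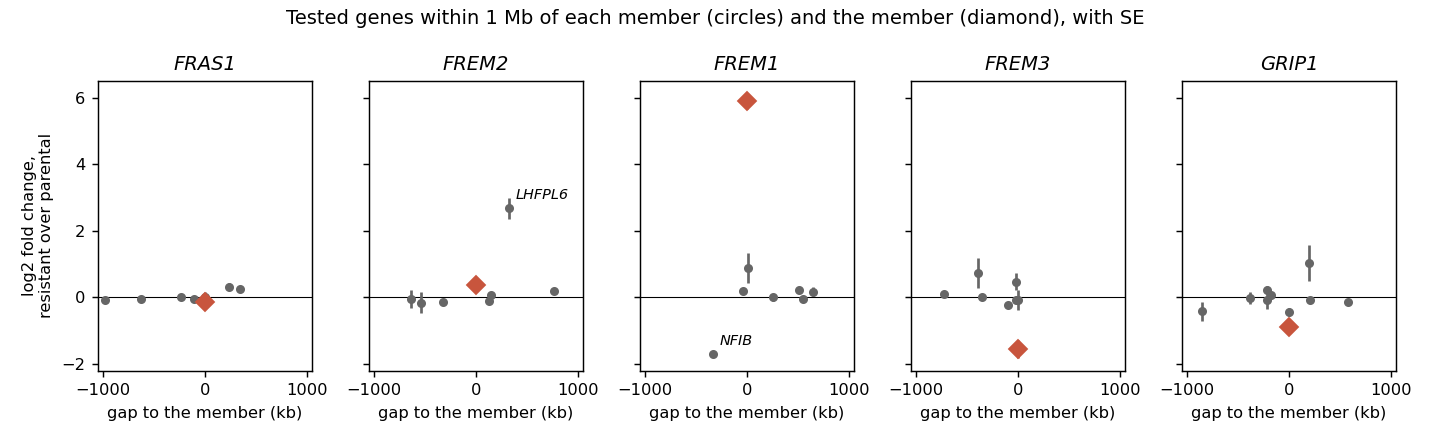
Log2 fold change of resistant over parental cells, with its SE, of each tested gene within 1 Mb of a member (gray circles) against its gap to the member in kb, negative toward lower coordinates, with the member itself as a red diamond at 0. The diamond of FREM1 at 5.89 has no neighbor near its height, and NFIB at −1.71 and LHFPL6 at 2.68 are the called neighbors.

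The genes most like FREM1 in level and pattern were found by the Euclidean distance of log2 CPM (prior count 2) over the 6 libraries, which share the same 2 groups. FREM1 was chosen by its fold change between these groups, so genes near it had to be higher in resistant libraries. The likeness is therefore a description and supports nothing about these genes. The nearest were ANKRD30B (distance 2.26), the transcription factor gene GATA3 (2.29), the potassium channel gene KCNJ8 (2.53), the phosphodiesterase gene PDE3A (2.84) and FAM237B (2.95). GATA3 had 7, 5 and 15 counts in parental and 143, 141 and 181 counts in resistant libraries. ANKRD30B had 10, 12 and 9 counts in parental and 133, 151 and 150 counts in resistant libraries. All 5 had higher mean parental levels than FREM1, from 0.59 to 0.81 CPM, and lower mean resistant levels, from 7.49 to 9.77 CPM. With a prior count of 0.5, 4 of these 5 remained among the nearest 5.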

How the data were processed

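RNA-Seq was analysed for 3 parental and 3 resistant libraries of 22Rv1. Per the labels and the methods, the authors purified poly-A RNA, mapped reads to hg38 with HISAT2 (version 2.0.5) and deposited raw counts per gene from featureCounts (version 1.5.0-p3), with position and length (the authors' listed length in bases, another quantity). Annotation release and strand setting are not given in the sources used here. All columns of per-sample values were matched to samples, and 0 were left out.

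Genes were filtered with filterByExpr, scaled by TMM and tested in edgeR (version 4.0.16, under R 4.3.3) by quasi-likelihood, with Benjamini-Hochberg adjustment over all genes tested. The SE is the log2 fold change divided by the square root of F. CPM uses TMM-scaled library sizes. A floor of 3 counts was chosen for every library, and the depth of a library sets what this floor is in CPM. Replicate libraries differed by more than counting error (chi-square per degree of freedom 1.79 to 2.48) and were kept separate. Code was tested on simulated counts. Alternatives were limma-voom (limma 3.58.1), DESeq2 (1.42.0), library size alone, other filters, a prior count of 5, the replicate number as a block, other windows and leaving out each library.

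Members and lists were chosen with earlier results of these data known. Named genes are all members and partners, called genes of the other lists (at most 3 per direction, with NID1, COL4A4, LAMB2 and COL4A5 added after their values were seen), called and nearest neighbors, the 5 genes nearest to FREM1 and cell type markers. LAMC1, LAMA5, LAMB1 and KIF5B were named for their abundance after their values were seen, as were CLCN3P1, GGTA2P and the overlapping genes. COL4A2 and COL4A3 were also added after their values were seen. Protein and promoter sequences of the members are not used here, because the reference at hand was of another organism.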

Additional observations from a re-analysis of the deposited data

How the results depend on the processing

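The log2 fold changes of the 5 members kept their direction under all alternatives run. Leaving out a single library gave FREM1 values of 5.77 to 5.96, and FREM1 was 4.84 with a prior count of 5. FREM1 was not tested when at least 10 counts were required in every library, because its parental counts lie below that. Leaving out a single library gave −1.76 to −1.31 for FREM3 and −0.974 to −0.818 for GRIP1. Calls of the members are a description, since the family was selected on this comparison.

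Genes called over the table, 434 higher and 487 lower, were 248 and 287 with at least 10 counts in every library. Basement membrane genes called higher, 2, were 1 with limma-voom, DESeq2, no filter, at least 10 counts, a prior count of 5 or the replicate block, and 1 to 2 with one library left out. Partner genes called, 1 higher and 0 lower, numbered 0 to 1 in each direction when a single library was dropped, and GRIP1 partners called lower from 1 to 2. Both changes in genes called lower were that of CSPG4, which is in both lists, without resistant library 1. Neighbors called higher, 1, were 2 with limma-voom or no filter, 0 with at least 10 counts, 3 within 2 Mb, where 2 were called lower, and 1 to 2 with one library left out. The cause was not tested, apart from the fewer genes and wider window of the settings themselves.

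Same-numbered libraries did not deviate together (r of −0.020 to −0.0081 across genes, and 0 of 6 libraries correlated best with their own number). With the replicate block, calls over the table numbered 418 higher and 471 lower. Low counts limit FREM1 in parental cells, where 13 counts in all set the ratio.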

Other observations

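Within 2 Mb of the members, 86 genes were tested, of which 3 were called higher and 2 lower. These counts are close to the 2.53% called higher and 2.84% called lower among all genes tested, and nothing is read from them. Of the called genes, 3 lay beyond 1 Mb. BNC2, a zinc finger gene at 1499 kb from FREM1, fell from 6.09 ± 0.18 to 2.61 ± 0.39 CPM (log2 fold change −1.22, edgeR FDR 7.85e-07). ANTXR2, which encodes an anthrax toxin receptor that binds basement membrane proteins, lies 1357 kb from FRAS1 and rose from 10 ± 0.51 to 23.1 ± 0.79 CPM (log2 fold change 1.21, edgeR FDR 5.46e-14). PRDM8, at 1640 kb from FRAS1, rose from 3, 4 and 8 counts to 18, 16 and 23 counts (log2 fold change 1.90, edgeR FDR 0.00107). These genes were named after their values were seen.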
